A study of Homo sapiens with 6 samples.

Results

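To describe the transcripts of the repair pathways that remove damaged or mispaired bases, 37 genes were followed in irradiated breast cancer cells. They were chosen by name from 3 pathways and comprise 18 base excision repair genes, 14 nucleotide excision repair genes and 5 mismatch repair genes, out of 58735 genes in the deposited table. The MDA-MB-231 line was derived from a human basal-like breast adenocarcinoma and carries a mutant p53. Cells had been exposed to 0 Gy or to 10 Gy from a 137Cs source, with 3 libraries per dose, and RNA was collected 24 h later. The labels give the genotype as WT and name all 6 libraries SCR, which the study uses for a non-targeting shRNA control, so both doses share that background. Whether the 3 libraries of a dose came from separate cultures is not given in the sources used here, and the p-values measure only the spread between these libraries, which may be technical.

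Base excision repair begins with a DNA glycosylase that cuts out an altered base, continues with an endonuclease that opens the strand at the empty site, and ends with a polymerase and a ligase that fill and seal the gap. Nucleotide excision repair removes a longer stretch around a bulky lesion, which is found either across the genome by XPC and the DDB proteins or at a stalled RNA polymerase by ERCC6 and ERCC8. Mismatch repair follows DNA replication, with MutS proteins binding a mispaired base and MutL proteins directing removal of the new strand. Ionizing radiation is known to oxidize bases and to break strands, damage that is handled in large part by base excision repair and by the PARP enzymes that sense nicks.

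The values are FPKM, fragments per kilobase of gene scaled to sequencing depth. Reads recovered from them summed to between 15643641 and 28861781 per library. Libraries of the same dose correlated across genes with r of at least 0.992, against at most 0.989 between doses. The cell line's markers were present, with VIM at 301 and KRT81 at 523 FPKM at 0 Gy. Of the markers listed as low or absent, PGR was at 0 in all 6 libraries. ESR1 did not exceed 0.0169 FPKM and CDH1 did not exceed 0.479 FPKM. ERBB2 and EPCAM were detected, at 6.76 to 8.08 FPKM and 1.20 to 1.51 FPKM. Of the 4 markers of other cell types, PTPRC and ALB did not exceed 0.0193 FPKM in any library, whereas PECAM1 lay between 1.22 and 1.97 and COL1A1 between 2.98 and 4.34 FPKM. The values also carry a factor per library that differed by dose: the depth each library was divided by was 0.973, 0.983 and 0.991 times its own reads at 0 Gy and 1.04, 1.04 and 1.03 times at 10 Gy. The number of genes above 0 was higher at 10 Gy too (24876 to 26496 against 22169 to 23975). The part of these differences in the results was not tested, so each change was computed with the values as deposited and under 4 other scalings.

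Across the 12128 genes that averaged 1 FPKM or more, limma on log2(FPKM + 1) called 1443 genes higher (11.9%) and 2874 lower (23.7%) at 10 Gy at a Benjamini-Hochberg adjusted p under 0.05. Without the first 10 Gy library 2705 genes were called in all, and without the second 2660. Calls that were higher made up 33.4% of all calls with the deposited values, 63.9% with upper quartile scaling, 74.5% with TPM, 48.7% with median-of-ratios scaling and 58.1% with scaling to library totals. The median log2 change of all genes was -0.04 as deposited and 0.08 with TPM, a median shift of 0.12 per gene. TPM values are larger than FPKM here, and 1 was added to both before taking logs. For low genes a change with TPM therefore also reflects the smaller weight of that 1, not the scaling alone. Under all 5 scalings, 11.9% of genes were called higher and 8.79% lower. With the deposited values, 16 of the 35 members tested were called, 3 higher and 13 lower, and their median log2 change was -0.11. Under all 5 scalings, 3 were called higher and 6 lower.

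The promoters of the tested members that fell most (UNG and APEX1) and rose most (ERCC6 and PMS2) on the log2(FPKM + 1) scale are shown to place them in the genome. The second places depend on that scale. In the mean FPKM, LIG1 changed by -25.2% against -24.1% for APEX1, and MLH3 by 20.9% against 20.4% for PMS2. Sequences were taken from RefSeq on GRCh38.p14, in which 34 of the 37 members were matched with 50 start sites, and the 250 bases before each start were searched on both strands. Each stretch is the longest run in its window that lies outside annotated exons, written 5′ to 3′ on the gene's strand. Capitals mark CCAAT, the binding motif of NF-Y, GGGGCGGGG, a GC box, or TTTGAA, the core of the cell cycle element CHR, each on either strand.
UNG, chr12:109097347-109097573, plus strand, ends 23 bases before the upstream start: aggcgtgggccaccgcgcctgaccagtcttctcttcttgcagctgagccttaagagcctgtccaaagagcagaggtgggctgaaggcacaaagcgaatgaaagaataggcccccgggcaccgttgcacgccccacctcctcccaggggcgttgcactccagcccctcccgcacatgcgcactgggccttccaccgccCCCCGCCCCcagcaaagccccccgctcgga
UNG, chr12:109097922-109098117, plus strand, ends 54 bases before the downstream start: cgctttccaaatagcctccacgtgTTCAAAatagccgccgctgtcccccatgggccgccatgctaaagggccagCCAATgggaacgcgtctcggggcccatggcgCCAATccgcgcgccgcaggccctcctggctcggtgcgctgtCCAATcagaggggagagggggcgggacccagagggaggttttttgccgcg
APEX1, chr14:20455106-20455190, plus strand, ends 35 bases before the start: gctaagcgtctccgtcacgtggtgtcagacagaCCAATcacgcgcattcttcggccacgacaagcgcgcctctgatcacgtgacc
ERCC6, chr10:49539539-49539788, minus strand, ends at the upstream start: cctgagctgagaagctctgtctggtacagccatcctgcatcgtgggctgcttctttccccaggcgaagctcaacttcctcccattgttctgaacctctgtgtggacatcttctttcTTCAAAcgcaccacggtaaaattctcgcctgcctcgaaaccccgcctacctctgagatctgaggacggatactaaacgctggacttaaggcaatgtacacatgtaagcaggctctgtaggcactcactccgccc
ERCC6, chr10:49539122-49539371, minus strand, ends at the downstream start: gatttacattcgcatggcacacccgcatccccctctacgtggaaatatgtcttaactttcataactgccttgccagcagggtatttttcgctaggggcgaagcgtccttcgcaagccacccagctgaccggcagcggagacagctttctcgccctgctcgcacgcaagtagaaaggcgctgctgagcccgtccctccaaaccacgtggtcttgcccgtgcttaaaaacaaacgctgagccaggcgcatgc
PMS2, chr7:6009126-6009244, minus strand, ends 19 bases before the upstream of its starts: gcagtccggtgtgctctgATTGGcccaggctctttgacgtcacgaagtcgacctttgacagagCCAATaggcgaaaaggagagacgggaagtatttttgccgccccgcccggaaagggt
CCAAT was present in 21 of the 50 member windows and in 32.0% of the 35116 promoters of the RefSeq table, and the GC box in 19 windows against 15.1%. TTTGAA was found in 6 windows, those of ERCC1, ERCC6, MUTYH, NEIL3, UNG and XRCC1, against 13.3%. GGCGGGAA, an E2F motif, was in 7 windows of DDB2, GTF2H1, LIG1, MSH6, PARP2 and XPC, against 2.72%, and TTTGGCGC, another, in the window of MSH3 alone, against 0.550%. Hits of different motifs overlapped in 1 window and hits of the same motif in 5. These matches describe letters in a window, and the windows of 1 gene overlap in part.

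At 0 Gy the 37 transcripts spanned from 0.470 to 120 FPKM, with a median of 6.05 FPKM. APEX1, the endonuclease that cuts at empty base sites, was highest at 120 ± 4.09 FPKM (SD, n = 3), above 98.5% of protein-coding genes. RAD23B, which stabilizes XPC, came next at 92.9 ± 1.75 FPKM, followed by UNG, the uracil glycosylase, at 69.7 ± 1.60 FPKM, PARP1 at 56.1 ± 0.845 FPKM and DDB1 at 33.3 ± 0.781 FPKM. None of these 5 overlapped the next lower of them over the libraries. Below DDB1, the 11 members from CETN2 at 17.6 FPKM to APTX at 11.6 FPKM formed a run in which each overlapped its neighbour in rank. A second run of 8 overlapping neighbours went from SMUG1 at 3.04 FPKM to XPC at 2.44 FPKM. NEIL1, a glycosylase for oxidized pyrimidines, and ERCC5, the nuclease known as XPG, lay below the minimum of 1 FPKM and were not tested, which left 35 members. Exons of the readthrough gene BIVM-ERCC5 on the same strand cover 63.2% of ERCC5 exon bases. How reads in such shared exons were counted is not given, so the ERCC5 level may be understated, which was not tested. FPKM divides by the summed exon length of all transcripts of a gene, which for ERCC6 is 16737 bases, for DDB1 13950 and for LIG3 12919, so the rank of such genes is set partly by that length.

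**Figure D1:**
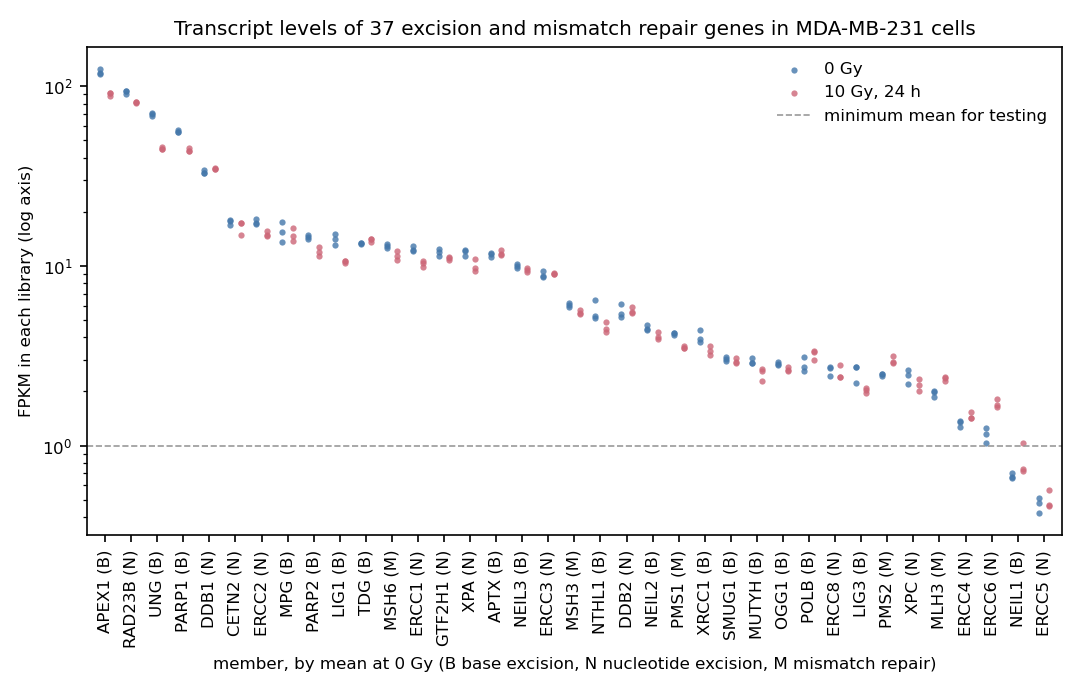
FPKM of the 37 members in each library on a log axis, ordered by the mean at 0 Gy, with blue points for 0 Gy and red points for 10 Gy. The levels run from 120 FPKM for APEX1 to 0.470 FPKM for ERCC5, and NEIL1 and ERCC5 lie below the dashed minimum of 1 FPKM in their means. ERCC5 shares 63.2% of its exon bases with BIVM-ERCC5, and the effect of this on its level was not tested.

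Most base excision repair transcripts called after 10 Gy were lower, led by UNG, and the number called higher depended on the scaling. With the deposited values, 7 of 17 members tested were called lower against 23.7% of all genes, and 0 were called higher against 11.9%. With each of the other scalings 5 were called lower, against 11.9% of all genes with upper quartile scaling, 8.79% with TPM, 16.9% with median-of-ratios scaling and 13.6% with scaling to library totals. Called higher were TDG, POLB and APTX with TPM (3 members against 25.7% of all genes), TDG and POLB with upper quartile scaling (2 against 21.1%) and with library totals (2 against 18.9%), and TDG with median-of-ratios scaling (1 against 16.0%). UNG, APEX1 and LIG1 were called with a change of at least 1.3-fold, a class that held 5.77% of all genes. Called lower under all 5 scalings were UNG, APEX1, LIG1, PARP1 and PARP2, 5 of 17 against 8.79% of all genes. The median log2 change was -0.17 as deposited, -0.09 with TPM and -0.11 with scaling to library totals, against -0.04, 0.08 and 0.02 for all genes. In bulk RNA, fewer cells expressing a gene and less RNA per cell cannot be told apart.

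UNG, which removes uracil from DNA, had 71.0, 70.1 and 67.9 FPKM at 0 Gy and 45.0, 44.9 and 45.9 FPKM at 10 Gy. All 3 irradiated libraries lay far below the control libraries, a fall of 35.1% in the mean. This was the largest fall among the tested members, with a log2 change of -0.61 ± 0.030 (SE) and a limma adjusted p of 0.000227. The change lay between -0.61 and -0.49 over the 5 scalings. The gene lies on the plus strand of chr12:109097574-109110992, and 2103 to 3887 reads stood behind each value.

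None of the 8 other glycosylases tested was called with the deposited values. SMUG1, a second uracil glycosylase, was at 3.04 ± 0.0809 FPKM at 0 Gy and 2.95 ± 0.0920 FPKM at 10 Gy, with overlapping libraries. TDG, which removes thymine from mispairs with guanine, had 13.3, 13.4 and 13.4 FPKM at 0 Gy and 14.0, 13.7 and 14.1 FPKM at 10 Gy. Its irradiated libraries were all above the controls, yet its log2 change of 0.06 was not called as deposited (adjusted p = 0.180). Under each of the other 4 scalings TDG was called higher, with a log2 change of up to 0.19. Of the glycosylases for oxidized bases, OGG1 was at 2.87 and 2.66 FPKM, NEIL2 at 4.51 and 4.08 FPKM and NEIL3 at 9.94 and 9.52 FPKM at 0 and 10 Gy, and none was called. The log2 change of OGG1 was -0.08 as deposited and 0.02 with TPM, and that of NEIL3 was -0.06 and 0.06. NTHL1, which acts on oxidized pyrimidines, had 6.45, 5.14 and 5.24 FPKM at 0 Gy and 4.89, 4.44 and 4.28 FPKM at 10 Gy. Its groups did not overlap and its log2 change was -0.25 ± 0.083 (SE), with an adjusted p of 0.0504. NTHL1 was called lower in 8 of 19 alternatives, among them voom on recovered reads (adjusted p = 0.0244) and the fit without the second 0 Gy library (adjusted p = 0.0438), and under none of the 5 scalings. MUTYH, which removes adenine paired with oxidized guanine, was at 2.94 ± 0.102 and 2.51 ± 0.206 FPKM (adjusted p = 0.0679). MPG, the alkylpurine glycosylase, was at 15.5 ± 1.98 and 14.9 ± 1.28 FPKM, the libraries overlapped, and the sign of its change turned with upper quartile scaling, TPM and scaling to library totals and without the first 0 Gy or the third 10 Gy library. NEIL1 was at 0.679 ± 0.0214 FPKM at 0 Gy and 0.832 ± 0.175 FPKM at 10 Gy, from 75 to 153 reads, and its highest value of 1.03 FPKM was in the second 10 Gy library.

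APEX1 had 124, 117 and 118 FPKM at 0 Gy and 92.2, 88.5 and 92.2 FPKM at 10 Gy. The groups stood well apart, with a fall of 24.1% in the mean, a log2 change of -0.39 ± 0.037 (SE) and a limma adjusted p of 0.000707. Over the 5 scalings its log2 change went from -0.39 to -0.27. APEX1 lies at chr14:20455191-20457772 on the plus strand.

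Transcripts of both ligases were called lower. LIG1, the ligase of replication and of long-patch repair, had 15.1, 14.2 and 13.1 FPKM at 0 Gy and 10.4, 10.6 and 10.6 FPKM at 10 Gy. Its irradiated libraries were nearly equal and below every control, a fall of 25.2% with a log2 change of -0.39 ± 0.050 (SE) and a limma adjusted p of 0.00199. LIG3, the partner of XRCC1 that also serves mitochondria, had 2.24, 2.74 and 2.75 FPKM at 0 Gy and 1.96, 2.09 and 2.05 FPKM at 10 Gy. The groups did not overlap, although the first 0 Gy library was closer to the irradiated ones than the others were, and the log2 change was -0.24 ± 0.072 (SE; adjusted p = 0.0393). LIG3 was called only with the deposited scaling among the 5, and with any library other than the first 0 Gy library left out the adjusted p was between 0.0855 and 0.114. Exons of RFFL on the other strand cover 29.1% of LIG3 exon bases, and the strand of the libraries is not given in the sources used here. RFFL was lower too, with 2.74, 3.18 and 2.83 FPKM at 0 Gy and 2.28, 2.64 and 2.38 FPKM at 10 Gy. The part of RFFL reads in the LIG3 change was not tested.

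XRCC1, the scaffold that brings LIG3 and POLB to a nick, had 3.77, 4.42 and 3.94 FPKM at 0 Gy and 3.21, 3.37 and 3.58 FPKM at 10 Gy. The ranges were adjacent but separate, and the log2 change of -0.20 ± 0.063 (SE) passed with an adjusted p of 0.0444. That call too was made only with the deposited scaling among the 5, and with any library other than the first 0 Gy library left out the adjusted p was between 0.0582 and 0.136. POLB, the gap-filling polymerase, had 2.74, 3.11 and 2.60 FPKM at 0 Gy and 3.33, 3.00 and 3.35 FPKM at 10 Gy, with overlap. Its log2 change of 0.15 ± 0.067 (SE) was not called as deposited (limma adjusted p = 0.122). It was 0.22 with upper quartile scaling (adjusted p = 0.0430) and 0.30 with TPM (adjusted p = 0.0282), where the added 1 also weighs less. APTX, which cleans abortive ligation ends, was at 11.6 ± 0.280 and 11.8 ± 0.449 FPKM with overlap. Its log2 change was 0.03 as deposited (adjusted p = 0.636) and 0.15 with TPM, where it was called higher (adjusted p = 0.0378).

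PARP1 had 57.1, 55.6 and 55.6 FPKM at 0 Gy and 43.7, 43.6 and 45.0 FPKM at 10 Gy. PARP1 makes most of the poly(ADP-ribose) that follows strand breaks, and its level was lower in all 3 irradiated libraries by 21.4% in the mean. The log2 change was -0.34 ± 0.029 (SE) with a limma adjusted p of 0.000624. PARP2, the related enzyme with overlapping function, had 14.4, 14.9 and 14.1 FPKM at 0 Gy and 11.3, 12.0 and 12.7 FPKM at 10 Gy. Its groups did not overlap either, with a fall of 17.2%, a log2 change of -0.25 ± 0.047 (SE) and an adjusted p of 0.00708, which was 0.0482 with TPM.

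**Figure D2:**
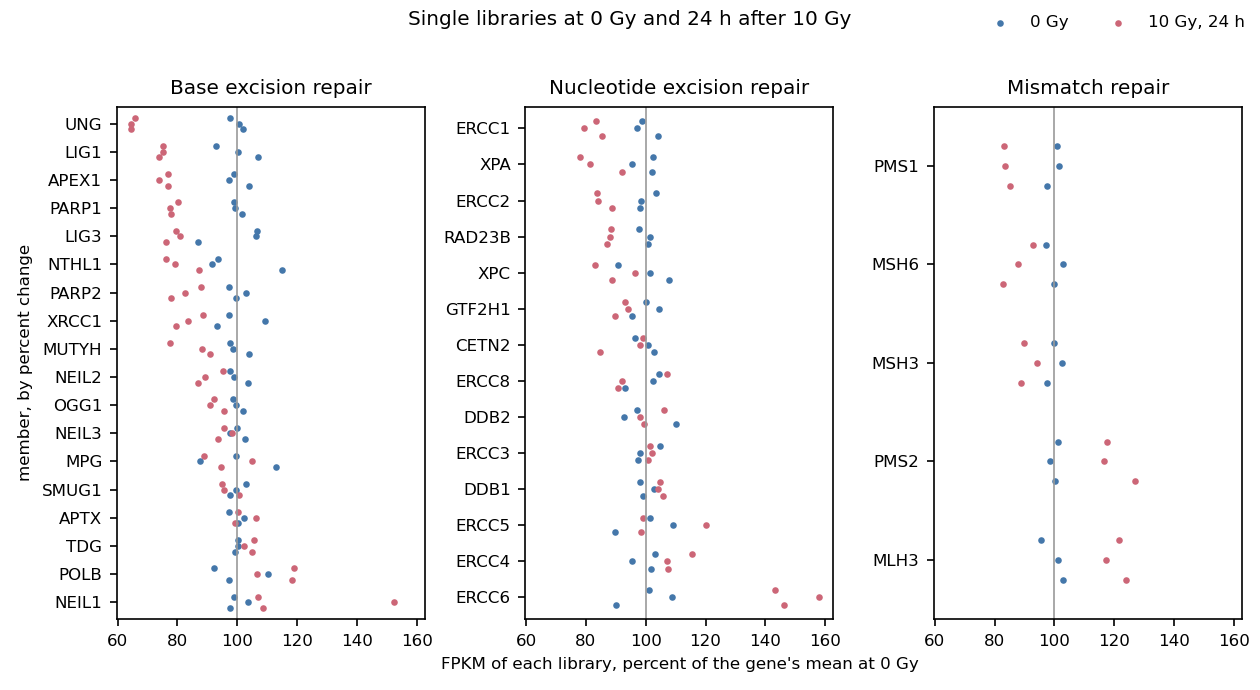
FPKM of each library as a percent of the gene's mean at 0 Gy, with 1 row per member, 1 panel per pathway, blue points for 0 Gy and red points for 10 Gy. UNG, with a mean change of -35.1%, lies farthest to the left, and ERCC6, with 49.2%, lies farther to the right than any other tested member; NEIL1 (1.03 FPKM in its second 10 Gy library) was not tested.

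Nucleotide excision repair transcripts moved in both directions. Of 13 members tested, 4 were called lower (RAD23B, ERCC1, ERCC2 and XPA) against 23.7% of all genes, and 1 was called higher (ERCC6) against 11.9%. Under all 5 scalings ERCC6 was called higher, 1 of 13 against 11.9% of all genes, and ERCC1 lower, 1 of 13 against 8.79%, shares near those of all genes. With TPM, ERCC6 and DDB1 were called higher (2 against 25.7% of all genes) and ERCC1 lower (1 against 8.79%). RAD23B, ERCC2 and XPA were no longer called there, although their log2 changes stayed negative at -0.06, -0.10 and -0.12. The median log2 change was -0.09 as deposited and 0.03 with TPM.

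Among the proteins that find damage, XPC, the first to bind a distorted helix, had 2.63, 2.47 and 2.21 FPKM at 0 Gy and 2.16, 2.35 and 2.02 FPKM at 10 Gy. The libraries overlapped, and its log2 change was -0.11 with a 95% interval from -0.28 to 0.05 (adjusted p = 0.244). DDB2, which hands ultraviolet lesions to XPC and is a known p53 target, had 6.15, 5.18 and 5.43 FPKM at 0 Gy and 5.55, 5.48 and 5.93 FPKM at 10 Gy. Here too the doses overlapped, with a log2 change of 0.02 and a 95% interval from -0.13 to 0.16 (adjusted p = 0.851). Its partner DDB1, an adaptor of CUL4 ubiquitin ligases, was higher in every irradiated library, at 33.0, 34.2 and 32.7 FPKM at 0 Gy and 35.2, 34.6 and 34.8 FPKM at 10 Gy. DDB1 was not called as deposited (log2 change 0.07, adjusted p = 0.125) and was called higher under the other 4 scalings, at up to 0.19. CETN2, the third protein of the XPC complex, was at 17.6 ± 0.575 and 16.5 ± 1.41 FPKM and overlapped.

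RAD23B had 93.5, 94.2 and 90.9 FPKM at 0 Gy and 80.9, 81.8 and 82.0 FPKM at 10 Gy. The irradiated libraries were all lower, by 12.1% in the mean, with a log2 change of -0.18 ± 0.029 (SE) and a limma adjusted p of 0.00374. With TPM the log2 change was -0.06 and was not called (adjusted p = 0.150).

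Of the proteins that act on transcribed strands, ERCC6, the remodeler called CSB, had 1.03, 1.25 and 1.16 FPKM at 0 Gy and 1.68, 1.82 and 1.65 FPKM at 10 Gy. Every irradiated library was above every control, a rise of 49.2% in the mean from 322 to 840 reads per library. Its log2 change was 0.34 ± 0.069 (SE) with a limma adjusted p of 0.00965. With upper quartile scaling, median-of-ratios scaling and library totals it was 0.39, 0.37 and 0.38. The largest value over the 5 scalings was 0.60, with TPM, where the added 1 also weighs less. On the log2(FPKM + 1) scale the change of so low a gene is understated. ERCC8, the ubiquitin ligase subunit called CSA, was at 2.64 ± 0.160 and 2.55 ± 0.240 FPKM with overlap and was not called. Of the ERCC8 windows of 100 bases, 23.0% were shared with GNL3LP1, a pseudogene that lies within its exons.

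The unwinding and incision steps were mixed. XPA, which verifies the lesion, had 12.2, 11.4 and 12.2 FPKM at 0 Gy and 10.98, 9.71 and 9.32 FPKM at 10 Gy. Its groups were separate, with a log2 change of -0.23 ± 0.061 (SE) and an adjusted p of 0.0225. The call was lost with upper quartile scaling, TPM and scaling to library totals, and also without the first 0 Gy library (adjusted p = 0.0559), the third (0.0639), the second 10 Gy library (0.0777) or the third (0.0671). ERCC2, the XPD helicase of TFIIH, had 17.2, 17.3 and 18.2 FPKM at 0 Gy and 15.6, 14.8 and 14.7 FPKM at 10 Gy. Those libraries were apart, with a log2 change of -0.21 ± 0.038 (SE) and an adjusted p of 0.00575, although the call was lost with TPM (adjusted p = 0.157) and upper quartile scaling (0.0578). ERCC3, the other helicase of TFIIH known as XPB, was at 8.92 ± 0.356 and 9.05 ± 0.0711 FPKM, and GTF2H1, a core subunit, was at 12.0 ± 0.537 and 11.03 ± 0.259 FPKM. Neither was called, with adjusted p of 0.730 and 0.0825, but GTF2H1 passed without the first 0 Gy library (adjusted p = 0.0328).

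ERCC1, the binding subunit of the nuclease that cuts on one side of the lesion, had 12.97, 12.1 and 12.3 FPKM at 0 Gy and 10.6, 9.87 and 10.4 FPKM at 10 Gy. The irradiated libraries were lower without overlap, by 17.4% in the mean, with a log2 change of -0.25 ± 0.042 (SE) and a limma adjusted p of 0.00442. ERCC1 remained called in all 6 fits that left out a library. Exons of CD3EAP on the opposite strand cover 28.6% of its exon bases. CD3EAP was lower too, with 4.66, 5.17 and 4.92 FPKM at 0 Gy and 3.42, 3.77 and 4.13 FPKM at 10 Gy. The strand of the libraries is not given, and the part of CD3EAP reads in the ERCC1 change was not tested. ERCC4, the catalytic subunit known as XPF, had 1.35, 1.26 and 1.36 FPKM at 0 Gy and 1.42, 1.42 and 1.53 FPKM at 10 Gy. Its libraries were separate in the other direction, but its log2 change of 0.08 was not called (adjusted p = 0.347). ERCC5, which cuts on the other side, was at 0.470 ± 0.0463 and 0.498 ± 0.0584 FPKM, and 61.4% of its windows of 100 bases are shared with the readthrough gene BIVM-ERCC5, which is listed at 0 in all libraries.

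Mismatch repair members also moved in both directions. MLH3 and PMS2 were called higher, 2 of 5 against 11.9% of all genes, and MSH6 and PMS1 lower, 2 of 5 against 23.7%. Under all 5 scalings MLH3 and PMS2 were called higher, against 11.9% of all genes, and no member was called lower, against 8.79%. Nearly every gene called higher as deposited kept that call, so the 5 scalings add little for MLH3 and PMS2. The median log2 change was -0.12 as deposited and -0.01 with TPM. The number called was 1 without the second 0 Gy library, the first 10 Gy library or the second 10 Gy library, and 2 without the third 10 Gy library, PMS1 being the call that was made in all 6 such fits.

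PMS2, the MutL subunit that nicks the new strand, had 2.49, 2.45 and 2.51 FPKM at 0 Gy and 3.15, 2.90 and 2.92 FPKM at 10 Gy. Controls were tight and irradiated libraries all higher, by 20.4% in the mean, with a log2 change of 0.20 ± 0.051 (SE) and a limma adjusted p of 0.0224. The adjusted p was 0.0532 without the second 0 Gy library and 0.0858, 0.0504 and 0.0519 without 10 Gy library 1, 2 and 3 in turn. PMS2CL, a known near-copy, shares 10.8% of the PMS2 windows of 100 bases. How reads that match both genes were assigned is not given, and their part in the PMS2 change was not tested. MLH3, a MutL subunit used mostly in meiosis, had 2.01, 1.98 and 1.87 FPKM at 0 Gy and 2.42, 2.29 and 2.37 FPKM at 10 Gy. These too were separate, with a rise of 20.9%, a log2 change of 0.19 ± 0.053 (SE) and an adjusted p of 0.0321, which was between 0.0578 and 0.107 with any library other than the first 0 Gy library left out.

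PMS1, a MutL subunit with no clear role in repair, had 4.10, 4.26 and 4.23 FPKM at 0 Gy and 3.57, 3.51 and 3.5 FPKM at 10 Gy. It fell by 16.0% without overlap, with a log2 change of -0.20 ± 0.041 (SE) and an adjusted p of 0.0101, and the call was lost with upper quartile scaling and TPM (adjusted p = 0.146). MSH6, the MutS subunit for base mismatches and short loops, had 12.9, 13.3 and 12.6 FPKM at 0 Gy and 10.7, 11.4 and 12.0 FPKM at 10 Gy. Its groups did not overlap, and its log2 change of -0.17 ± 0.046 (SE; adjusted p = 0.0257) was called only with the deposited scaling among the 5. Without the first or second 0 Gy library the adjusted p was 0.0501 and 0.0662, and without the first or second 10 Gy library 0.0819 and 0.0753. MSH3, the subunit for longer loops, was at 6.05 ± 0.150 and 5.51 ± 0.171 FPKM, lower in every irradiated library and not called (adjusted p = 0.0615).

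**Figure D3:**
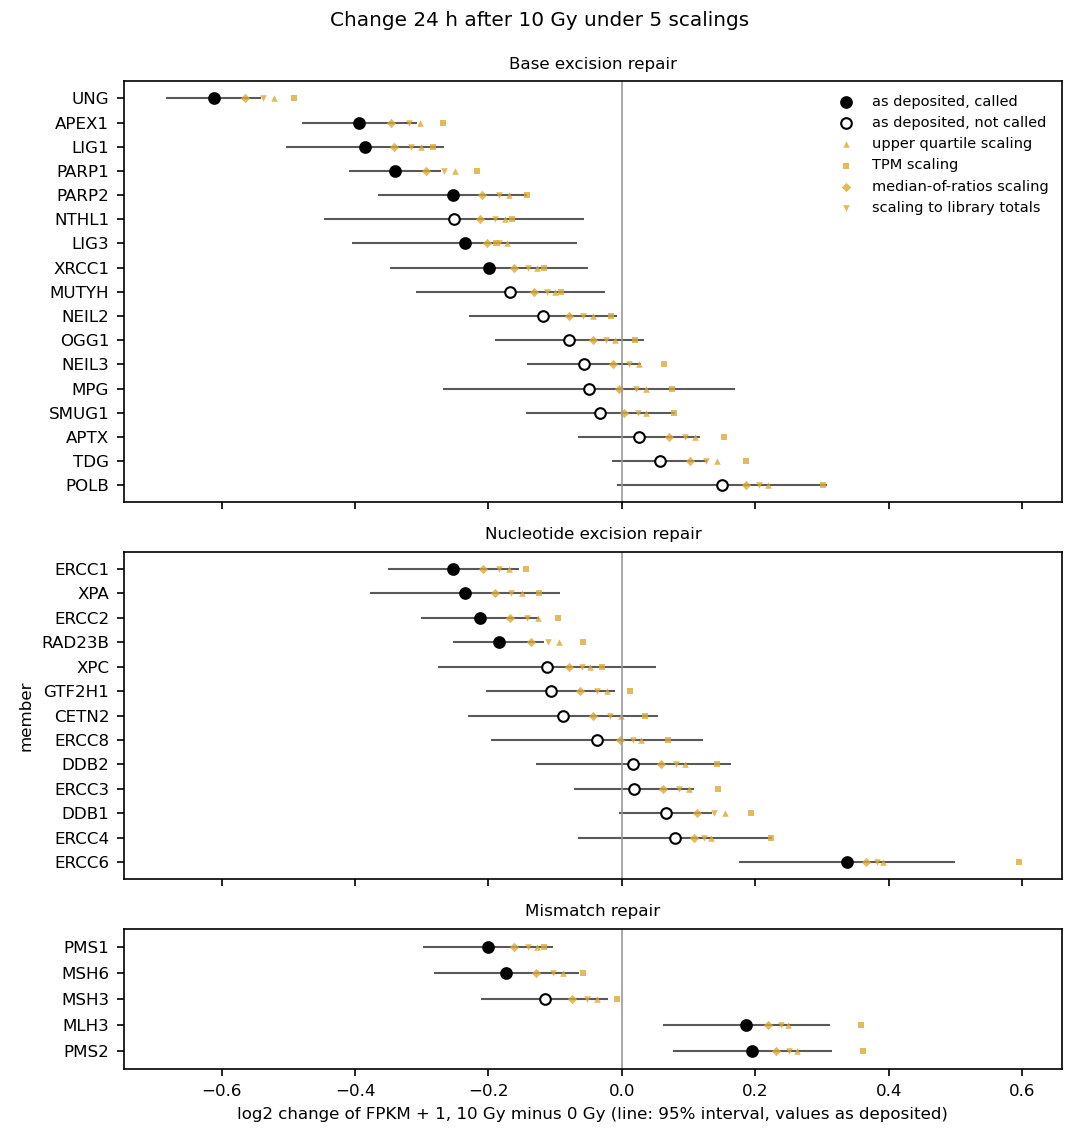
Log2 change of FPKM + 1 for the 35 tested members, 10 Gy minus 0 Gy, with black circles for the deposited values (filled where called), lines for 95% intervals and yellow marks for 4 other scalings. The other scalings lie to the right of the deposited value, and UNG stays between -0.61 and -0.49 under all 5.

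Across the pathways, 19 of the 35 tested members were below all controls in every irradiated library, against 32.8% of all genes, and 6 were above, against 19.1%. Those above were TDG, ERCC4, ERCC6, DDB1, MLH3 and PMS2. The sign of the change was negative under all 5 scalings for 18 members and positive for 10. For the other 7 (OGG1, NEIL3, MPG, SMUG1, ERCC8, CETN2 and GTF2H1) it depended on the scaling. Summed over the 18 base excision repair members, the level was 348 to 364 FPKM at 0 Gy and 278 to 281 FPKM at 10 Gy. The 14 nucleotide excision repair members summed to 218 to 222 FPKM and 202 to 203 FPKM, and the 5 mismatch repair members to 27.2 to 28.2 FPKM and 25.2 to 26.3 FPKM. The sum of FPKM over all genes was also lower at 10 Gy. Rescaled to TPM, the base excision repair sum was 1289 to 1308 at 0 Gy and 1104 to 1126 at 10 Gy, still apart. The nucleotide excision repair sum was 794 to 818 and 797 to 820 TPM, and the mismatch repair sum 98.6 to 104 and 102 to 104 TPM, so both overlapped between doses.

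Ratios of partner transcripts within a library do not depend on scaling, and 8 pairs of members were compared. With 3 libraries per dose, the smallest p that a two-sided exact permutation test can give is 0.1, so no ratio could pass 0.05. The ratio of ERCC6 to ERCC8 was 0.421, 0.464 and 0.422 at 0 Gy and 0.701, 0.75 and 0.584 at 10 Gy, and the doses did not overlap (exact permutation p = 0.1). PMS2 to PMS1, which compete for the same MutL partner, was 0.607, 0.574 and 0.593 at 0 Gy and 0.883, 0.826 and 0.835 at 10 Gy, again apart (exact permutation p = 0.1). The 2 subunits of the incision nuclease, ERCC1 and ERCC4, stood at a ratio of 9.63, 9.60 and 9.01 at 0 Gy and of 7.48, 6.96 and 6.78 at 10 Gy, apart as well (exact permutation p = 0.1). In log2 units these ratios differed by 0.63, 0.52 and -0.41.

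For the other 5 pairs the doses overlapped. MSH6 to MSH3 was 2.14 ± 0.0546 at 0 Gy and 2.07 ± 0.124 at 10 Gy, and PARP1 to PARP2 was 3.88 ± 0.129 and 3.69 ± 0.169. The ligases LIG1 and LIG3 stood at 5.55 ± 1.04 and 5.20 ± 0.113, and the first 0 Gy library was at 6.72. DDB2 to DDB1 was 0.168 ± 0.0174 and 0.162 ± 0.00708, and XPC to RAD23B was 0.0262 ± 0.00188 and 0.0267 ± 0.00205. Exact permutation p-values of these 5 pairs lay between 0.2 and 0.9.

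**Figure D4:**
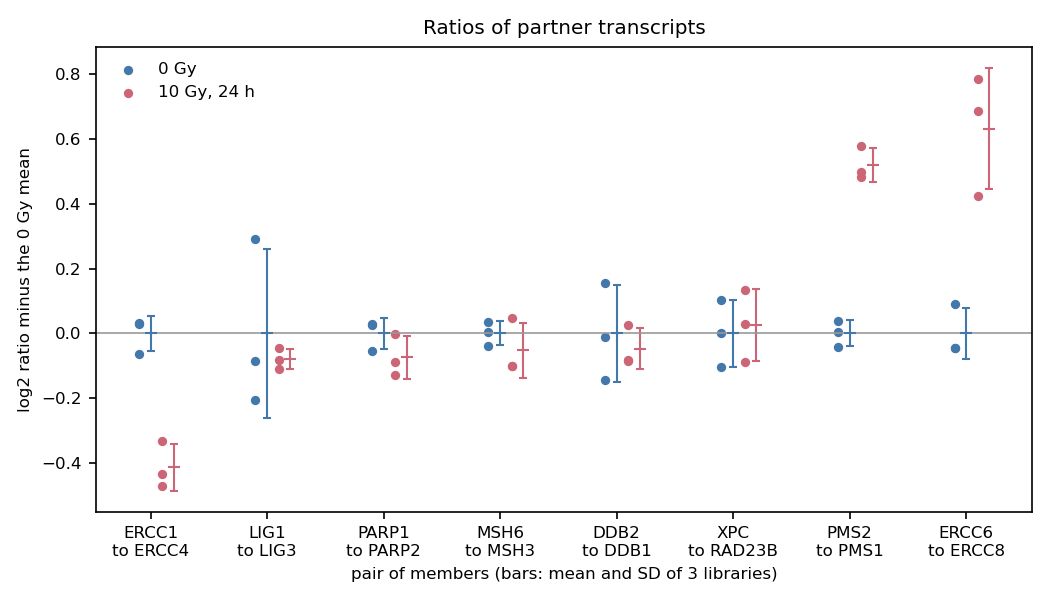
Log2 ratio of 2 members in each library minus the mean at 0 Gy, for 8 pairs, with blue points for 0 Gy, red points for 10 Gy and bars for the mean and SD of 3 libraries. The doses are apart for ERCC1 to ERCC4 (-0.41), PMS2 to PMS1 (0.52) and ERCC6 to ERCC8 (0.63) and overlap for the other 5 pairs.

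Other genes of these pathways were taken from lists of known factors and are read against 23.7% of all genes called lower, 11.9% called higher and a median log2 change of -0.04. Of 12 further base excision repair genes tested, 6 were called lower and 1 higher, with a median log2 change of -0.14. FEN1, the flap nuclease of long-patch repair, went from 111 to 80.8 FPKM (log2 change -0.45, limma adjusted p = 0.00114). ADPRHL2, which removes ADP-ribose from serine, went from 29.3 to 22.2 FPKM (-0.38, adjusted p = 0.00208). PARP3 was the gene called higher, from 5.42 to 6.87 FPKM (log2 change 0.30). Of 16 further nucleotide excision repair genes tested, 5 were called lower and 0 higher, with a median of -0.10. Under all 5 scalings 1 was called lower, against 8.79% of all genes, and the median with TPM was 0.02, against 0.08 for all genes. Among these 16, RBX1, a subunit of the CUL4 ligases, went from 22.2 to 18.4 FPKM (log2 change -0.26, limma adjusted p = 0.0122). RBX1 was not called with TPM (adjusted p = 0.0737).

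A further list held 18 replication factors that excision or mismatch repair also uses, namely PCNA, its RFC loader, the POLD and POLE polymerases, the RPA proteins that coat single strands and the exonuclease EXO1. Of these, 14 were called lower, against 23.7% of all genes, and 0 higher, against 11.9%. Under all 5 scalings 6 were called lower, against 8.79% of all genes. The median log2 change was -0.22. EXO1, which degrades the new strand in mismatch repair, went from 15.6 to 10.8 FPKM (log2 change -0.50) and PCNA, the sliding clamp, from 170 to 121 FPKM (-0.48), both with a limma adjusted p of 0.000743. Genes of S phase moved the same way, with 12 of 13 called lower, against 23.7% of all genes. Under all 5 scalings 9 of them were called lower, against 8.79%. Their median was -0.31, and their summed level was 542 to 576 FPKM at 0 Gy and 442 to 455 FPKM at 10 Gy. RRM2, a subunit of ribonucleotide reductase, changed by -0.67 and CCNE2, a cyclin of S phase entry, by -0.50 on the log2 scale. By contrast, 9 of 12 proliferation genes were called higher, against 11.9% of all genes, and 1 lower, against 23.7%. The same counts held under all 5 scalings, against 11.9% of all genes higher and 8.79% lower. Their median was 0.29, and their summed level was 873 to 880 FPKM at 0 Gy and 1051 to 1059 FPKM at 10 Gy. CCNB2 and AURKA, a mitotic cyclin and a mitotic kinase, changed by 0.55 and 0.49 on the log2 scale. The part of the cell cycle in the changes of the repair members was not tested.

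Of 12 p53 target genes tested, 2 were called higher, against 11.9% of all genes, and 2 lower, against 23.7%. Their median log2 change was -0.03. The list summed to 115 to 122 FPKM at 0 Gy and 118 to 123 FPKM at 10 Gy, or 427 to 446 and 461 to 499 TPM. RRM2B, a p53-induced subunit of ribonucleotide reductase, went from 7.93 to 9.87 FPKM (log2 change 0.28, limma adjusted p = 0.00544). CDKN1A, the p21 inhibitor, went from 30.7 to 24.7 FPKM (-0.30, adjusted p = 0.0102), although it was not called under all 5 scalings. DDB2, a repair member of the p53 response, did not pass the test, as given above.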

How the data were processed

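The authors deposited FPKM values of 6 polyA RNA-sequencing libraries, made by their sequencing provider, and the submitters' processing notes name HISAT2 and GRCh38. The counting program is not given in the sources used here. Gene coordinates and lengths matched GENCODE 29, with lengths summed over the exons of all transcripts. FPKM multiplied by length and by a depth per library gave whole reads, within 0.1 reads, for 100% of values above 0. Samples were grouped by the labelled dose.

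Doses were contrasted by limma 3.58.1 (R 4.3.3; eBayes with an intensity trend, two-sided) on log2(FPKM + 1), which understates changes of low genes. Genes averaging under 1 FPKM were left out. P-values were adjusted over all 12128 genes and called under 0.05, and the fit was tested on simulated data. The scalings were as deposited, upper quartile, TPM, median-of-ratios and, added after seeing the data, library totals. The same 1 was added under each of them, also to TPM, whose values are larger than FPKM. Alternatives covered the pseudocount, filters, scaling, the replicate block, eBayes settings, protein-coding genes alone, voom, thinning to 15643641 reads and each library left out.

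Members and gene lists were chosen with earlier results of these data known. Named genes are all members and, from each other list, those with the 2 largest absolute changes, PARP3 being named after its value was seen. One gene that this rule names is not reported here. Ratios were compared by exact permutation. Plots were made with matplotlib 3.10.9 (Python 3.11.15).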

Additional observations from a re-analysis of the deposited data

How the results depend on the processing

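Of the 16 members called, 7 (UNG, APEX1, LIG1, PARP1, PARP2, ERCC1 and ERCC6) were called in the same direction under every alternative in which they were tested. Mismatch repair, with 4 called, gave 1 without a filter on low values and 1 with a mean of at least 5 FPKM, where 2 of its members were tested, and 2 with upper quartile scaling and 2 with TPM. Nucleotide excision repair, with 5 called, gave 3 with TPM. With each library left out in turn, 2660 to 3993 of all genes, 5 to 7 base excision, 4 to 5 nucleotide excision and 1 to 3 mismatch repair members were called. With the replicate block 3503 genes were called in all, and 6, 5 and 1 members of the 3 pathways; the replicate numbers did not pair the libraries, since deviations of same-numbered libraries correlated at -0.04, -0.03 and -0.10. The voom fit on recovered reads called 5161 genes, 8 base excision, 5 nucleotide excision and 4 mismatch repair members.

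The sign turned in members that were not called. With upper quartile scaling the log2 change became 0.0264 for NEIL3, 0.0368 for MPG, 0.0365 for SMUG1 and 0.0292 for ERCC8. With TPM it became 0.0196 for OGG1, 0.0639 for NEIL3, 0.0746 for MPG, 0.0784 for SMUG1, 0.0696 for ERCC8, 0.0342 for CETN2 and 0.0123 for GTF2H1. With library totals it became 0.0109 for NEIL3, 0.0208 for MPG, 0.0238 for SMUG1 and 0.0170 for ERCC8, and with median-of-ratios scaling 0.00369 for SMUG1. The cause was not tested. With each library left out in turn, the log2 change went from -0.137 to 0.0365 for MPG, from -0.0273 to 0.0774 for DDB2 and from -0.00309 to 0.0429 for APTX. MPG turned without the first 0 Gy or the third 10 Gy library, DDB2 without the second 0 Gy or the third 10 Gy library, and APTX without the second 10 Gy library. The dose difference of the log2 ratio went from -0.183 to 0.0666 for LIG1 to LIG3 and from -0.118 to 0.0303 for DDB2 to DDB1, both turning without the first 0 Gy library. For XPC to RAD23B it went from -0.0291 to 0.0818, turning without the third 0 Gy or the second 10 Gy library. Between 65 and 14668 reads stood behind each member's value.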
